A study of Mus musculus with 8 samples.

Results

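Interferon-stimulated genes are the genes that a cell switches on when an interferon binds its receptor. A list of 40 such genes was followed across LSK and LK cells of WT and Ripk3-/- mice. They were found by gene symbol from a list drawn up with earlier results of these data known, and all 40 were present among the 29955 gene names that each library lists. The libraries come from bulk RNA-seq of bone marrow cells. LSK cells lack lineage markers and carry Sca1 and c-kit, so that they hold the stem cells and early multipotent progenitors. LK cells lack lineage markers and Sca1 but carry c-kit, and hold the committed myeloid progenitors. There were 4 groups of 2 libraries, numbered replicates 1 and 2, which are WT LSK, Ripk3-KO LSK, WT LK and Ripk3-KO LK. Ripk3-KO is written Ripk3-/- from here on.

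Ripk3-/- mice lack the kinase Ripk3, a mediator of necroptosis, in every cell of the body, so that a difference between genotypes is not limited to the sorted cells. The labels give the strain as CD57BL6/J for all groups, and they give no age, no sex and no number of animals per library. They also state that RNA was taken with no treatment given, whereas the paper describes mice of both genotypes that had received repeated low-dose X-ray irradiation before collection. Irradiation, if it was given, is thus shared by all groups and cannot be told apart from the baseline. Nothing says whether the replicates came from separate animals, and p-values then measure only the spread between these libraries.

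Type I interferons signal through the receptor chains Ifnar1 and Ifnar2 and the kinases Jak1 and Tyk2 to a complex that holds Stat2 and Irf9. This complex binds the interferon-stimulated response element, or ISRE, in the promoters of its target genes. Interferon gamma signals through Ifngr1 and Ifngr2, and its targets carry the gamma-activated site, or GAS. In bone marrow, stem cells are known to keep a set of these genes switched on without infection, and acute interferon drives them into the cell cycle. Ly6a, which encodes the Sca1 used for the sort, is itself an interferon-inducible gene. LSK and LK cells were thus parted by the product of a gene of this class.

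Promoters were read to see which of the 40 genes carry these elements. RefSeq promoters of the GRCm38.p6 build were found for 32 of the 40 genes. None was found for Dhx58, Usp18, Oas2, Mx1, Mx2, Rtp4, Parp9 and Parp14. In the 250 bases before the annotated start, the ISRE core GAAANNGAAA occurred on either strand in 12 of the 32 genes (37.5%), compared with 3.46% of 27025 genes with a promoter. The GAS motif TTCNNNGAA, which reads the same on both strands, occurred in 6 of the 32 genes (18.8%), compared with 8.13% of all genes. The ISRE core was present at Stat2, Isg15, Oas1a, Oas3, Ifit1, Ifit3, Rsad2, Bst2, Irgm1, Igtp, Gbp2 and Gbp3, and GAS at Irf1, Oas1a, Ifit2, Isg20, Bst2 and Igtp. In a 300-base window that runs past the start, the ISRE core occurred in 15 of the 32 genes (46.9%), compared with 3.99% of all genes. The genes added were Ifih1, Ddx58 and Ifitm3. GAS occurred there in 8 genes (25%), compared with 9.55% of all genes. A match is a string of letters and not evidence of binding. Overlapping matches were counted as separate positions but each gene once.

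The stretches below show the element in the genes on which the results turn, 5′ to 3′ on the strand of the gene, with up to 150 bases before the start and with matches of either motif in capitals. Isg15, Ifit1, Rsad2 and Oas3 are antiviral genes with an ISRE core, Igtp and Gbp3 are GTPase genes that differed between LSK and LK cells in opposite directions, and Irf1 is shown for its GAS.
Isg15 (chr4:156200819-156200968, minus strand): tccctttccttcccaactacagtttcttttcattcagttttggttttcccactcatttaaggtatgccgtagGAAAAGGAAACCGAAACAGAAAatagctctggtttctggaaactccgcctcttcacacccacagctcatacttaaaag
Ifit1 (chr19:34640739-34640870, plus strand): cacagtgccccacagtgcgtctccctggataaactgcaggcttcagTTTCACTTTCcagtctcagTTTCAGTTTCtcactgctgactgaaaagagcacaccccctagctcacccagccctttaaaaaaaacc
Rsad2 (chr12:26456453-26456602, minus strand): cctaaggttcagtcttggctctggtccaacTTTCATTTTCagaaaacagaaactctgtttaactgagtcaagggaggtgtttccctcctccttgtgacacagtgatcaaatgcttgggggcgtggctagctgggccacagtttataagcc
Oas3 (chr5:120777662-120777809, minus strand): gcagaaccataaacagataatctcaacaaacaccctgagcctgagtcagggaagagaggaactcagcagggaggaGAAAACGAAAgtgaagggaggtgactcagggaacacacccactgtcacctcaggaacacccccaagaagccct
Igtp (chr11:58199406-58199555, plus strand): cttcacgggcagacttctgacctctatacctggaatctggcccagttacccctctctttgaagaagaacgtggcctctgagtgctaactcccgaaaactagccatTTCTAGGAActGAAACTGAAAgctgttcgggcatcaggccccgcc
Gbp3 (chr3:142559894-142560025, plus strand): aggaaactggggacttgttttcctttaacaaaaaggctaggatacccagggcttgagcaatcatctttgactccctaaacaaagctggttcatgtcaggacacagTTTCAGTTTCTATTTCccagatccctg
Irf1 (chr11:53769864-53770013, plus strand): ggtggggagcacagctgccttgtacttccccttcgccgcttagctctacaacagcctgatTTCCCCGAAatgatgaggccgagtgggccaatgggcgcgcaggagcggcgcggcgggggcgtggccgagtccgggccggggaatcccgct
Isg15 holds 3 overlapping matches between positions -78 and -57 from its start, and Gbp3 holds 2 overlapping matches between -45 and -30. The matches of Ifit1, Rsad2 and Gbp3 lie on the opposite strand and are read here as their complement. Positions count from the annotated start, and the printed stretches of Ifit1 and Gbp3 end at -19 and that of Oas3 at -3. The GAS of Irf1 lies at -90 to -82, and Igtp holds a GAS at -45 to -37 just before its ISRE core at -34 to -25.

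**Figure D1:**
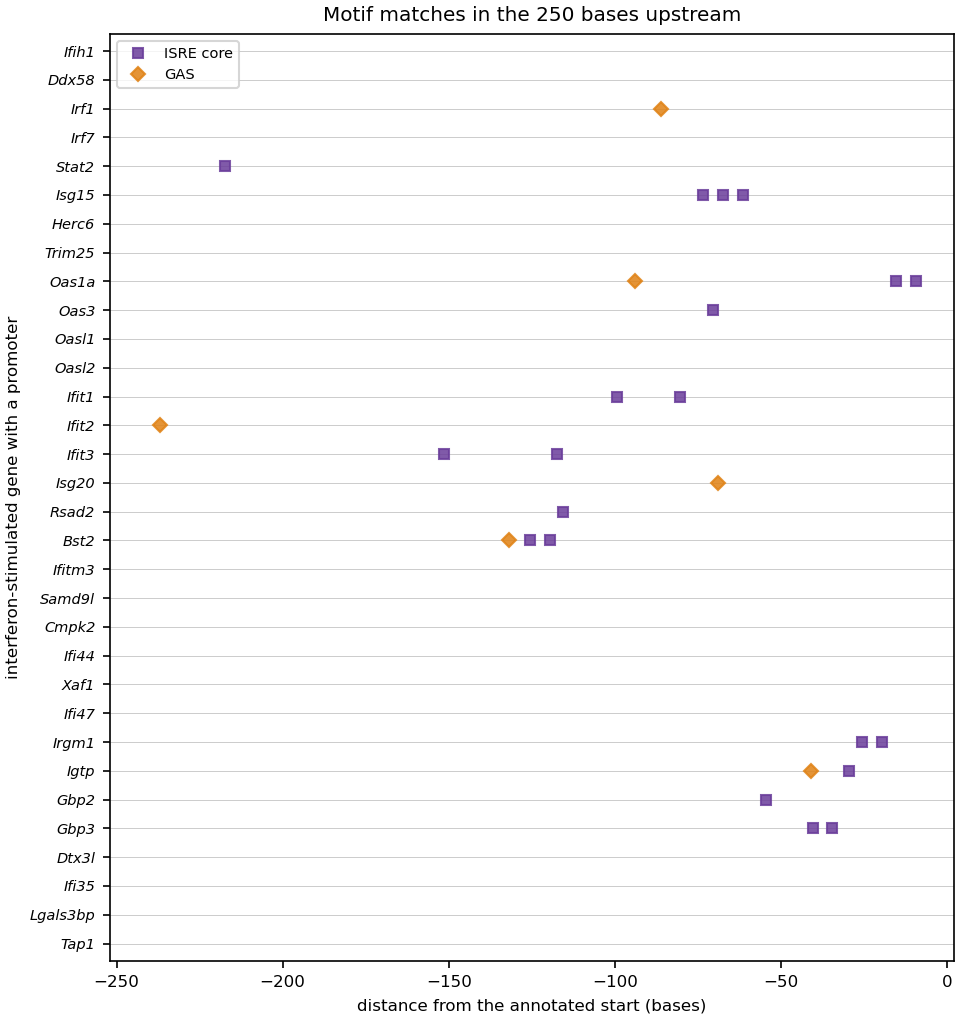
Positions of ISRE core matches (squares) and GAS matches (diamonds) in the 250 bases before the annotated start (horizontal axis, in bases) of the 32 interferon-stimulated genes with a promoter (rows). The 12 genes with an ISRE core hold it from 222 to 5 bases before the start, and 17 genes hold neither motif.

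The depth of the libraries was 9782166 to 16280811 reads, and 1 read was worth 0.0621 to 0.104 of a deposited value. The deposited values are CPM scaled by TMM (a library scaling factor from edgeR) within each population, so they serve to compare genotypes. To compare LSK with LK cells, reads were recovered from them and scaled by TMM over all 8 libraries, and these values are called CPM below. Fold changes are on the scale of log2(value + 1), which understates the change of low genes. Ripk3 was at 162 and 168 in WT LSK libraries and 3.38 and 1.08 in Ripk3-/- LSK libraries, and at 144 and 150 compared with 16.2 and 10.6 in LK libraries. Ly6a was at 123 to 207 CPM in LSK and 0.14 to 4.68 CPM in LK libraries, and the myeloid progenitor markers Mpo, Elane, Ctsg, Prtn3 and Ms4a3 were lower in LSK than LK cells (5 of 5 called in each genotype), as the sort labels say. Every WT library held Xist and no reads of the Y-linked Uty or Eif2s3y. Every Ripk3-/- library held reads of Uty and Eif2s3y and at most 1.27 of Xist. Kdm5d, also Y-linked, had 0 reads in WT and 2 to 50 reads in Ripk3-/- libraries, and Ddx3y had 0 in all. Genotype and sex thus cannot be told apart in any comparison of genotypes.

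The interferons themselves were near the limit of detection. Of 16 ligand genes listed, 9 had no read in any library. The 13 genes of interferon alpha and beta held 41 reads in all 8 libraries together and at most 19 in any library. Interferon gamma (Ifng) had at most 26 reads in a library. The chains of the type I receptor, by contrast, were well above this limit in every library. Ifnar1 was between 50.9 and 96.8 CPM and Ifnar2 between 164 and 211 CPM over the 8 libraries, with no difference called between populations or genotypes.

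LSK cells held more transcript of the interferon-stimulated genes than LK cells in both genotypes. In WT cells, 15 of 39 genes tested were higher in LSK and 1 was lower, with an adjusted p under 0.05 from limma. Of all 15950 genes tested, 9.16% were called higher and 14.8% lower, which is 23.9% in all. The median log2 difference was 0.55 for the interferon-stimulated genes and 0.08 for all genes. In Ripk3-/- cells, 21 of 40 were higher in LSK and 1 was lower, compared with 7.95% and 12.2% (20.2% in all) of all 15237 genes tested, and the median was 0.94 compared with 0.002 for all genes. Of the genes called higher, 13 were shared, which is 13 of 15 in WT and 13 of 21 in Ripk3-/- cells, and Gbp3 was the gene called lower in both. Called higher in WT and not in Ripk3-/- cells were Oas3 and Parp14, but a call in a single genotype is not a tested difference between genotypes, and the test of that difference called none of the 40. Ifit3 was the gene not tested in WT cells.

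The summed CPM of the 40 genes was 3392 and 3480 in WT LSK, 3422 and 3290 in Ripk3-/- LSK, 1991 and 2055 in WT LK, and 1723 and 1786 in Ripk3-/- LK libraries. Each LSK library was thus above each LK library. Without the 4 genes Ifitm3, Irf1, Lgals3bp and Tap1, which carry much of it, the sum was 1584 and 1570 in WT LSK, 1885 and 1660 in Ripk3-/- LSK, 964 and 1027 in WT LK, and 992 and 1015 in Ripk3-/- LK libraries. The LSK libraries stayed above the LK libraries, Ripk3-/- LSK libraries were then above WT LSK libraries, and the LK genotypes overlapped. The order of the LSK genotypes depends on which genes were left out, and these were picked by their level in these data. With all 40 genes, the LSK genotypes overlapped. Mean CPM of Ifitm3 (902 and 745), Irf1 (418 and 344) and Lgals3bp (322 and 273) was higher in WT than Ripk3-/- LSK cells, and that of Tap1 (216 and 222) was not. Nothing is read from this order about genotype. Gene by gene, both LSK libraries were above both LK libraries for 26 of 39 genes in WT (32.8% of all genes) and 32 of 40 in Ripk3-/- cells (27.5%), and below for 1 (31.2%) and 2 (30.1%). In bulk RNA, fewer cells that express a gene and less RNA of it per cell cannot be told apart. The counts depend on single libraries, as 10 genes were called in WT cells without WT LK replicate 1, and 14 in Ripk3-/- cells without Ripk3-/- LSK replicate 1 or without Ripk3-/- LK replicate 2. The scaling between populations also matters. With CPM scaled by the total count alone, the median log2 difference of all genes was 0.46 in WT and 0.29 in Ripk3-/- cells, and the called interferon-stimulated genes were 21 higher and 0 lower in WT cells, and 28 higher and 0 lower in Ripk3-/- cells. The split of all called genes turned from 1461 higher and 2353 lower to 2552 higher and 916 lower in WT cells, and from 1212 and 1860 to 1884 and 996 in Ripk3-/- cells. The median of the interferon-stimulated genes stood above that of all genes by 0.48 with TMM, 0.51 with the total count and 0.87 with quantile normalization in WT cells, and by 0.93, 0.96 and 1.12 in Ripk3-/- cells.

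**Figure D2:**
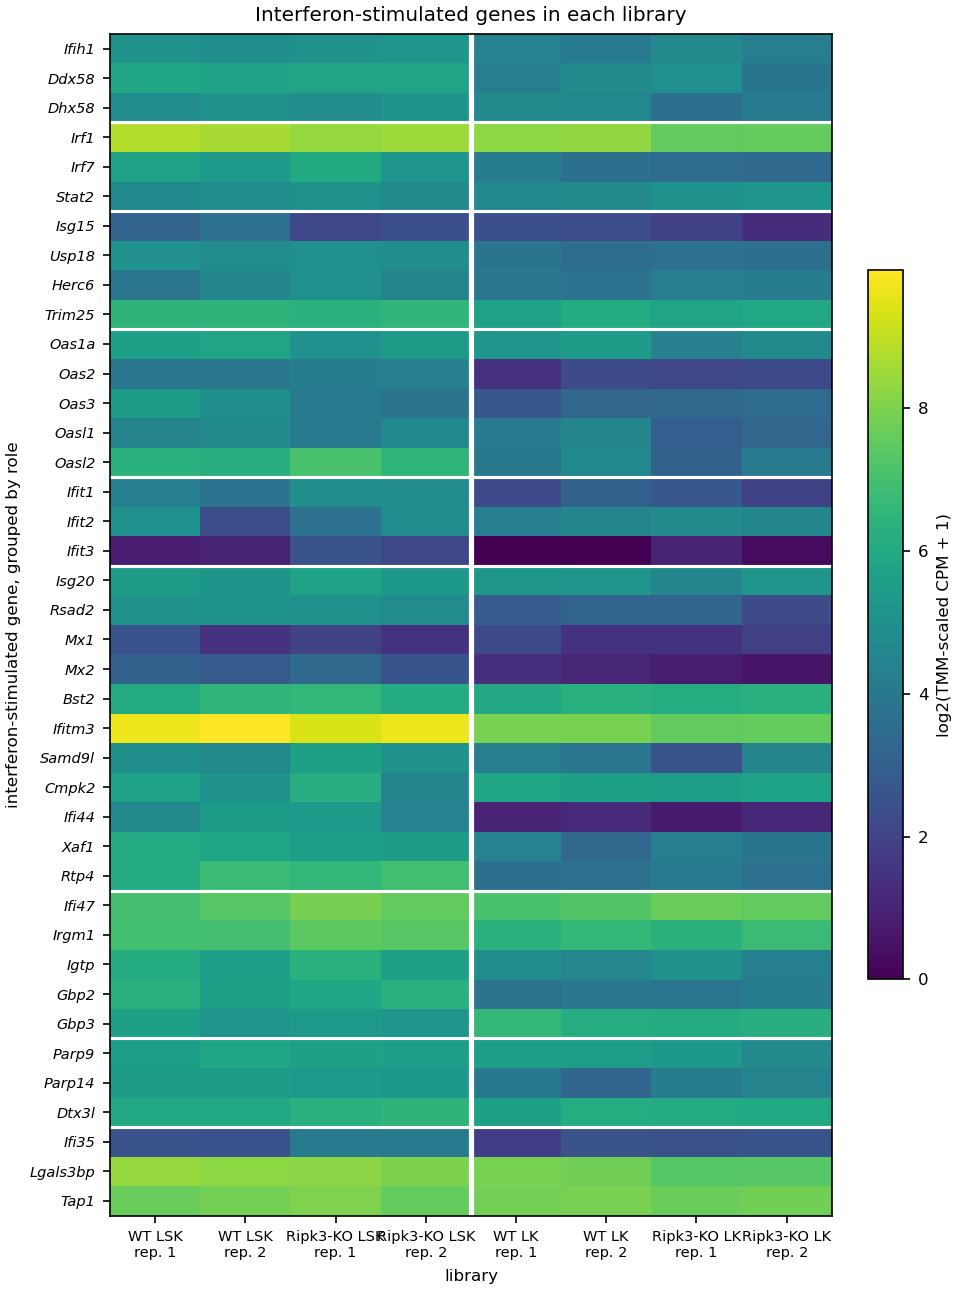
Level of each of the 40 interferon-stimulated genes (rows, grouped by role in the order of the text) in each of the 8 libraries (columns), as log2(TMM-scaled CPM + 1) in color. Ifitm3, from 186 to 978 CPM, is the brightest row, and Ifi44 and Rtp4 are bright in the 4 LSK libraries and dark in the 4 LK libraries.

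The levels of different genes can be compared only per length of transcript. Per kilobase of exon, Ifitm3 was the highest of the 40 in every group, at 1331 ± 159 CPM per kilobase in WT LSK cells (SD, n = 2). Lgals3bp at 113 ± 9.26 and Irf1 at 105 ± 7.75 CPM per kilobase (SD, n = 2) followed and lay within their spread of each other. In WT LK cells, Ifitm3 was at 363 ± 2.07 CPM per kilobase (SD, n = 2), and Lgals3bp, Irf1 and Bst2 at 81.5, 78.2 and 77.7 CPM per kilobase lay within their spread of each other. The lowest in WT LSK cells were Mx1 at 0.850 and Ifit3 at 0.486 CPM per kilobase.

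Of the sensors of viral RNA, Ddx58 was higher in LSK than LK cells in both genotypes. Ddx58 encodes RIG-I, and its CPM was 57.8 and 52.6 in WT LSK, 54.5 and 55.3 in Ripk3-/- LSK, 18.0 and 25.7 in WT LK, and 31.1 and 13.4 in Ripk3-/- LK libraries. The groups did not overlap, and the log2 difference was 1.31 (SE 0.355, adjusted p = 0.0102 from limma) in WT and 1.38 (SE 0.355, adjusted p = 0.00731) in Ripk3-/- cells. Dhx58, which encodes the related helicase LGP2, was at 26.6 and 33.4 CPM in WT LSK and 25.3 and 23.9 CPM in WT LK libraries, a log2 difference of 0.27 that was not called (adjusted p = 0.607 from limma). In Ripk3-/- cells it was at 29.1 and 34.6 CPM in LSK and 11.2 and 15.7 CPM in LK libraries, a log2 difference of 1.19 (SE 0.359, adjusted p = 0.0203 from limma). Ifih1, which encodes MDA5, was not called in either genotype, with log2 differences of 0.78 and 0.71.

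Among the transcription factors, Irf7 and, in Ripk3-/- cells, Irf1 were called higher in LSK cells, and Stat2 was not called. Irf7, which amplifies interferon production, was at 52.6 and 40.3 CPM in WT LSK and 17.7 and 11.8 CPM in WT LK libraries. It was at 64.5 and 36.5 CPM in Ripk3-/- LSK and 10.2 and 9.53 CPM in Ripk3-/- LK libraries. Every LSK library was above every LK library, and the log2 difference was 1.61 (SE 0.379, adjusted p = 0.00395 from limma) in WT and 2.19 (SE 0.379, adjusted p = 1.97e-04) in Ripk3-/- cells. Irf1, the founding member of the interferon regulatory factors, was at 440 and 397 CPM in WT LSK, 329 and 359 CPM in Ripk3-/- LSK, 306 and 316 CPM in WT LK, and 185 and 190 CPM in Ripk3-/- LK libraries. The log2 difference between populations was 0.42 in WT cells (adjusted p = 0.0689 from limma) and 0.87 in Ripk3-/- cells (SE 0.169, adjusted p = 6.57e-04). Stat2, a partner of Irf9 in the complex that binds the ISRE, lay between 23.7 and 35.8 CPM in all 8 libraries, with log2 differences between populations of 0.10 in WT and -0.29 in Ripk3-/- cells that were not called. In Ripk3-/- cells both LSK libraries (32.0 and 24.6 CPM) were below both LK libraries (33.2 and 35.8 CPM), and the 95% interval of the log2 difference was -0.98 to 0.40.

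The ISG15 system comprises the ubiquitin-like Isg15, its protease Usp18, its ligase Herc6, and Trim25, which ubiquitinates RIG-I. Of these 4 genes, Usp18, which also dampens signaling at the type I interferon receptor, was the gene called higher in LSK cells in each genotype. Its CPM was 31.8 and 26.4 in WT LSK, 31.1 and 29.1 in Ripk3-/- LSK, 13.7 and 10.9 in WT LK, and 12.3 and 11.7 in Ripk3-/- LK libraries. Its log2 difference was 1.18 (SE 0.384, adjusted p = 0.0291 from limma) in WT and 1.26 (SE 0.383, adjusted p = 0.0221) in Ripk3-/- cells. Isg15 was low throughout, at 7.93 and 12.4 CPM in WT LSK, 3.49 and 4.36 CPM in Ripk3-/- LSK, 4.41 and 4.22 CPM in WT LK, and 2.88 and 1.49 CPM in Ripk3-/- LK libraries. Its differences between populations were not called in WT (adjusted p = 0.199 from limma) or Ripk3-/- cells (adjusted p = 0.494). Isg15 also shares 482 bases at 95.2% identity with a processed pseudogene, so its reads may have been split.

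The OAS family makes the oligoadenylates that activate RNase L, and its relatives Oasl1 and Oasl2 were included. Of the 5 genes, 3 were called higher in LSK cells in each genotype. Oasl2 was at 79.6 and 76.7 CPM in WT LSK, 136 and 88.7 CPM in Ripk3-/- LSK, 15.2 and 23.7 CPM in WT LK, and 7.57 and 16.4 CPM in Ripk3-/- LK libraries. The LSK and LK groups did not overlap. The log2 difference was 1.98 (SE 0.353, adjusted p = 3.22e-04 from limma) in WT and 3.18 (SE 0.353, adjusted p = 6.91e-07) in Ripk3-/- cells. On the log2(CPM + 1) scale these are 3.96-fold and 9.09-fold. Oas2 was low in LK cells, with 14.6 and 14.6 CPM in WT LSK, 16.9 and 19.3 CPM in Ripk3-/- LSK, 1.70 and 3.79 CPM in WT LK, and 3.39 and 3.70 CPM in Ripk3-/- LK libraries. The log2 difference was 2.12 (SE 0.538, adjusted p = 0.00675 from limma) in WT and 2.07 (SE 0.533, adjusted p = 0.00722) in Ripk3-/- cells.

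Oas3 and Oasl1 were each called in a single genotype. Oas3 was at 43.7 and 30.1 CPM in WT LSK, 16.6 and 13.1 CPM in Ripk3-/- LSK, 5.65 and 8.70 CPM in WT LK, and 9.15 and 10.2 CPM in Ripk3-/- LK libraries. The LSK libraries were above the LK libraries in both genotypes, and the log2 difference was 2.21 (SE 0.444, adjusted p = 9.99e-04 from limma) in WT cells but 0.56 (SE 0.441, adjusted p = 0.427) in Ripk3-/- cells. The difference between these values, -1.65, equals that of the genotype effects and had an adjusted p of 0.371 from limma. Oasl1, known as a brake on the translation of Irf7, was at 20.5 and 24.7 CPM in WT LSK and 15.7 and 21.9 CPM in WT LK libraries, which overlap. It was at 16.0 and 23.9 CPM in Ripk3-/- LSK and 6.92 and 8.82 CPM in Ripk3-/- LK libraries, with a log2 difference of 1.22 (SE 0.421, adjusted p = 0.0428 from limma), a call kept in 9 of 18 other settings. Oas1a, which shares 1861 bases at 97.6% identity with Oas1g, was not called in either genotype.

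The IFIT proteins bind viral RNA by its 5′ end, and of these 3 genes Ifit1 in Ripk3-/- cells was called. Ifit1 was at 18.6 and 12.8 CPM in WT LSK, 29.8 and 26.6 CPM in Ripk3-/- LSK, 3.56 and 7.49 CPM in WT LK, and 5.48 and 2.85 CPM in Ripk3-/- LK libraries. All LSK libraries were above all LK libraries, and the log2 difference was 2.55 (SE 0.511, adjusted p = 9.07e-04 from limma) in Ripk3-/- and 1.40 (SE 0.515, adjusted p = 0.0512) in WT cells. Ifit3 was listed at 0 in both WT LK libraries and was at 0.70 and 1.0002 CPM in WT LSK, 4.77 and 3.42 CPM in Ripk3-/- LSK, and 0.94 and 0.21 CPM in Ripk3-/- LK libraries. These are few reads, and Ifit3 shares 1700 bases at 97.8% identity with Ifit3b, a name not listed in the files. Ifit2 varied within groups, from 4.09 to 30.8 CPM between the WT LSK replicates, and was not called.

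Of the other antiviral effectors, 6 of 11 were higher in LSK cells in WT and 7 of 11 in Ripk3-/- cells, and they include Ifi44, which had the largest difference of the genes tested from the list in each genotype. Ifi44 was at 24.7 and 41.1 CPM in WT LSK, 40.4 and 20.4 CPM in Ripk3-/- LSK, 1.01 and 1.29 CPM in WT LK, and 0.65 and 1.14 CPM in Ripk3-/- LK libraries. Mean CPM was 32.9 in LSK and 1.15 in LK cells of WT, and 30.4 and 0.893 in those of Ripk3-/- mice. The log2 difference was 3.94 (SE 0.563, adjusted p = 2.78e-05 from limma) in WT and 3.99 (SE 0.558, adjusted p = 1.64e-05) in Ripk3-/- cells. On the log2(CPM + 1) scale these are 15.3-fold and 15.9-fold, which understates the change because the LK libraries were near 1 CPM. Rtp4 was at 68.2 and 110 CPM in WT LSK, 95.3 and 121 CPM in Ripk3-/- LSK, 11.7 and 12.5 CPM in WT LK, and 16.6 and 12.3 CPM in Ripk3-/- LK libraries. Its log2 difference was 2.74 (SE 0.321, adjusted p = 2.13e-06 from limma) in WT and 2.82 (SE 0.322, adjusted p = 1e-06) in Ripk3-/- cells. Rtp4 shares 296 identical bases with an antisense gene, a name not listed in the files.

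Ifitm3 stops viruses from fusing with the membranes of the cell and was the most abundant of the 40 genes. It was at 826 and 978 CPM in WT LSK, 659 and 832 CPM in Ripk3-/- LSK, 245 and 247 CPM in WT LK, and 186 and 192 CPM in Ripk3-/- LK libraries. The log2 difference was 1.86 (SE 0.169, adjusted p = 5.42e-08 from limma) in WT and 1.96 (SE 0.169, adjusted p = 1.61e-08) in Ripk3-/- cells, the smallest p of the 40 genes in each genotype. Rsad2, which encodes viperin, was at 33.6 and 34.5 CPM in WT LSK, 32.5 and 26.8 CPM in Ripk3-/- LSK, 6.27 and 8.10 CPM in WT LK, and 8.50 and 3.98 CPM in Ripk3-/- LK libraries. Its log2 difference was 2.11 (SE 0.446, adjusted p = 0.00162 from limma) in WT and 2.15 (SE 0.444, adjusted p = 0.0012) in Ripk3-/- cells. Thus Rsad2 was 4.30-fold and 4.44-fold higher in LSK cells.

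Xaf1, which opposes the apoptosis inhibitor XIAP, was at 66.4 and 58.5 CPM in WT LSK, 45.9 and 42.4 CPM in Ripk3-/- LSK, 19.9 and 8.96 CPM in WT LK, and 18.1 and 13.5 CPM in Ripk3-/- LK libraries. Its log2 difference was 2.13 (SE 0.369, adjusted p = 2.43e-04 from limma) in WT and 1.44 (SE 0.369, adjusted p = 0.00709) in Ripk3-/- cells. Samd9l, a restrictor of growth and viral replication, was at 29.8 and 24.4 CPM in WT LSK, 49.8 and 33.7 CPM in Ripk3-/- LSK, 18.3 and 14.0 CPM in WT LK, and 4.97 and 21.9 CPM in Ripk3-/- LK libraries. It was called in Ripk3-/- cells (log2 difference 1.84, SE 0.477, adjusted p = 0.00752 from limma) and not in WT cells (0.72, adjusted p = 0.275), and its Ripk3-/- LK libraries lay far apart.

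The Mx GTPases were at low levels in all libraries. Mx2 was at 7.32 and 6.001 CPM in WT LSK, 9.40 and 5.05 CPM in Ripk3-/- LSK, 1.55 and 1.12 CPM in WT LK, and 0.79 and 0.50 CPM in Ripk3-/- LK libraries. It was called higher in LSK cells in WT (log2 difference 1.72, SE 0.613, adjusted p = 0.0455 from limma) and Ripk3-/- cells (2.27, SE 0.617, adjusted p = 0.0104). The WT call of Mx2 was kept in 5 of 16 other settings. Mx1 was between 1.71 and 4.71 CPM in LSK and between 1.72 and 3.72 CPM in LK libraries, with no call. Mx1 and Mx2 share 921 bases at 94.8% identity, so reads may be split between them. Bst2, the tetherin that holds virus particles at the cell surface, was at 66.4 and 92.4 CPM in WT LSK, 94.3 and 68.4 CPM in Ripk3-/- LSK, 63.0 and 77.2 CPM in WT LK, and 69.3 and 77.3 CPM in Ripk3-/- LK libraries. These groups overlap, and the 95% interval of the log2 difference was -0.36 to 0.69 in WT and -0.40 to 0.66 in Ripk3-/- cells. Isg20 and Cmpk2 were not called in either genotype.

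**Figure D3:**
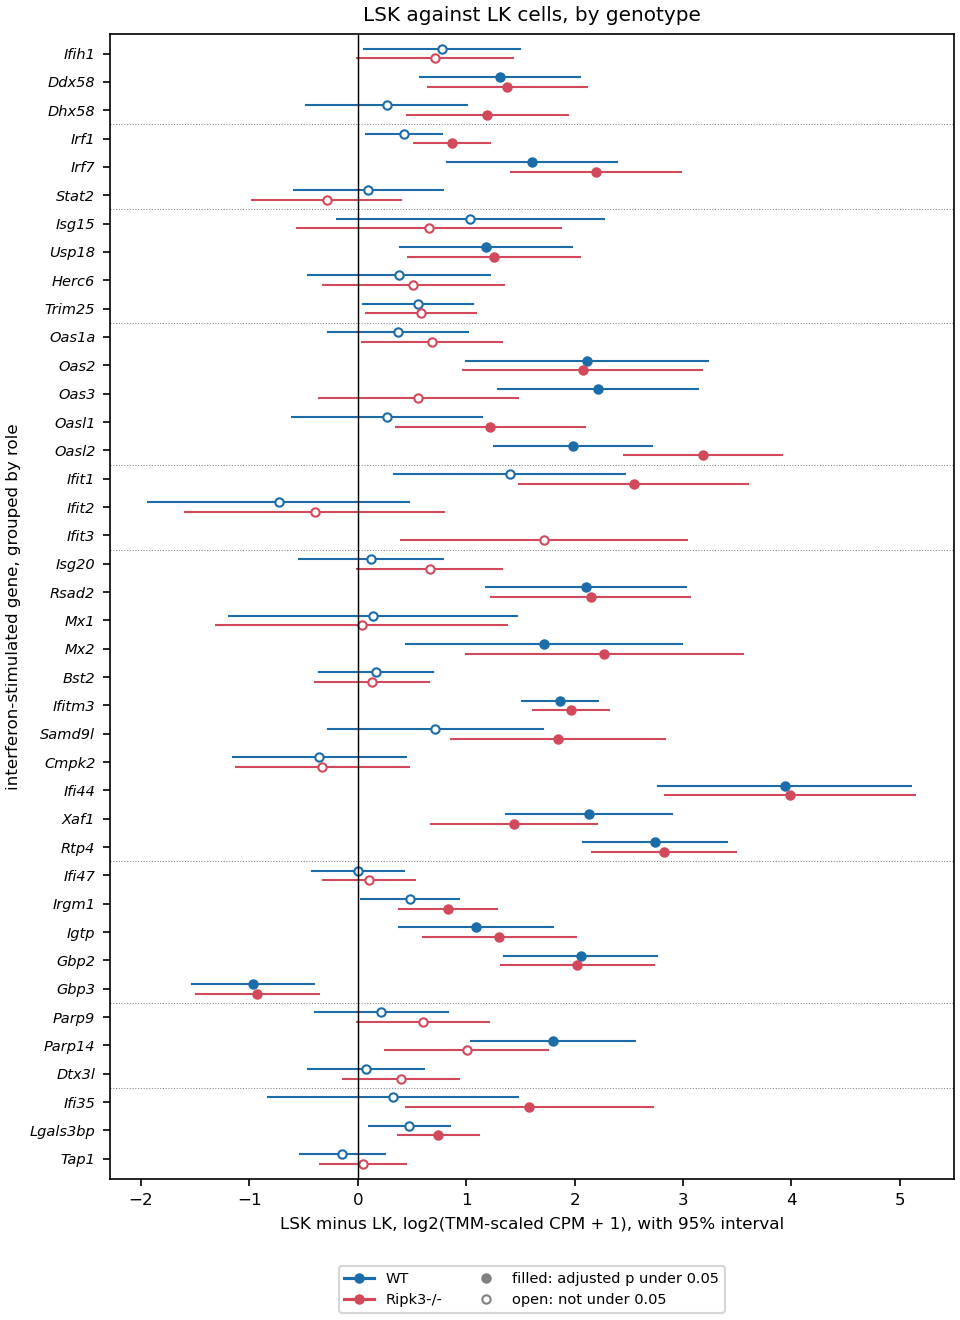
Log2 difference between LSK and LK cells (horizontal axis, LSK minus LK on the log2(TMM-scaled CPM + 1) scale) of the interferon-stimulated genes (rows, grouped by role) in WT and Ripk3-/- mice. Points are limma estimates from 2 libraries per group, lines are 95% intervals, and filled points have an adjusted p under 0.05. Most points lie to the right of 0, with Ifi44 at 3.94 and 3.99, and Gbp3 is the filled point to the left in each genotype.

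The GTPases of the IRG and GBP families, best known as targets of interferon gamma, went in opposite directions. Gbp2 was at 78.4 and 47.6 CPM in WT LSK, 55.9 and 79.1 CPM in Ripk3-/- LSK, 13.2 and 14.7 CPM in WT LK, and 14.1 and 17.1 CPM in Ripk3-/- LK libraries. Its log2 difference was 2.05 (SE 0.341, adjusted p = 1.60e-04 from limma) in WT and 2.03 (SE 0.341, adjusted p = 1.49e-04) in Ripk3-/- cells. Gbp3, also on chromosome 3, was at 49.3 and 35.2 CPM in WT LSK, 39.3 and 36.1 CPM in Ripk3-/- LSK, 96.0 and 71.0 CPM in WT LK, and 68.3 and 77.0 CPM in Ripk3-/- LK libraries. All LSK libraries were below all LK libraries, with log2 differences of -0.97 (SE 0.272, adjusted p = 0.0129 from limma) in WT and -0.93 (SE 0.273, adjusted p = 0.0178) in Ripk3-/- cells. Both calls of Gbp3 rest on the scaling, since with the total count alone the log2 difference was -0.55 (adjusted p = 0.129 from limma) and -0.61 (adjusted p = 0.112), and with quantile normalization -0.59 (adjusted p = 0.163) and -0.79 (adjusted p = 0.0519). Both genes hold an ISRE core, which for Gbp2 lies at -59 to -50 from its start and for Gbp3 is printed above.

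Of the IRG genes, Igtp was called higher in LSK cells in WT (log2 difference 1.09, SE 0.342, adjusted p = 0.0241 from limma) and Ripk3-/- cells (1.31, SE 0.342, adjusted p = 0.00822). Irgm1 was called in Ripk3-/- cells (0.83, SE 0.218, adjusted p = 0.00847 from limma) and not in WT cells (0.48, adjusted p = 0.108). Ifi47 was not called in either genotype, with log2 differences of 0.00 and 0.11.

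Parp9 and Dtx3l, which act together in ADP-ribosylation and ubiquitination, were not called between populations, and the related Parp14 was called in WT cells. Parp14 was at 41.7 and 43.2 CPM in WT LSK, 38.9 and 38.8 CPM in Ripk3-/- LSK, 15.3 and 8.53 CPM in WT LK, and 17.0035 and 21.0 CPM in Ripk3-/- LK libraries. LSK libraries were above LK libraries in both genotypes, and the log2 difference was 1.80 (SE 0.364, adjusted p = 0.00107 from limma) in WT and 1.003 (SE 0.364, adjusted p = 0.0546) in Ripk3-/- cells. Among the remaining genes, Ifi35 was called in Ripk3-/- cells at 16.7 and 15.7 CPM in LSK and 4.54 and 4.98 CPM in LK libraries (log2 difference 1.58, SE 0.55, adjusted p = 0.0452 from limma), a call kept in 9 of 18 other settings. In WT cells Ifi35 was at 4.88 and 4.64 CPM in LSK and 2.63 and 4.82 CPM in LK libraries, which overlap. Lgals3bp, a secreted glycoprotein, was at 341 and 304 CPM in WT LSK, 295 and 250 CPM in Ripk3-/- LSK, 247 and 217 CPM in WT LK, and 159 and 165 CPM in Ripk3-/- LK libraries. It was called in Ripk3-/- cells (log2 difference 0.74, SE 0.181, adjusted p = 0.00485 from limma) and not in WT cells (0.47, adjusted p = 0.0595). Tap1, the peptide transporter of MHC class I, was not called.

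**Figure D4:**
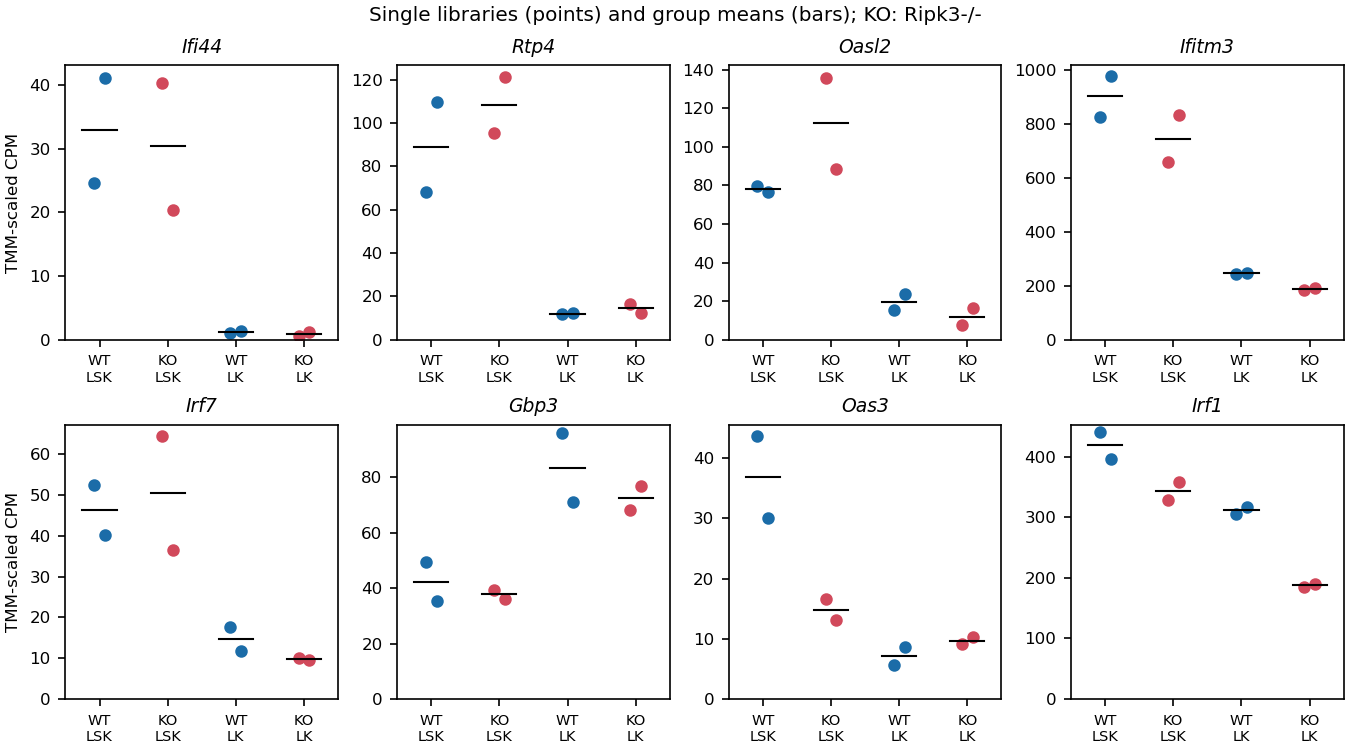
TMM-scaled CPM (vertical axes, from 0) of 8 interferon-stimulated genes in single libraries (points) of the 4 groups, with group means as bars. Ifi44, Rtp4, Oasl2, Ifitm3 and Irf7 are higher in each LSK than each LK library, Gbp3 is lower, and Irf1 in LK cells is at 306 and 316 in the WT libraries against 185 and 190 in the Ripk3-/- libraries.

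The counts of genes that differed between populations were also taken by promoter. In WT cells, 4 of the 11 tested genes with the core were higher in LSK and 1 was lower, compared with 6 and 0 of the 20 genes that have a promoter without it. In Ripk3-/- cells the counts were 5 higher and 1 lower of 12, compared with 11 and 0 of 20. The median log2 differences were 1.04 with and 0.45 without the core in WT cells, and 0.76 and 0.81 in Ripk3-/- cells. The core was sought here in the 250 bases before the start. Ddx58 and Ifitm3, called higher in both genotypes, hold it in the 300-base window and count here as without it. Oas2, Mx2, Rtp4 and Usp18, also called in both, have no promoter and are in neither class. Of all genes tested, 9.16% were called higher and 14.8% lower in WT cells, and 7.95% and 12.2% in Ripk3-/- cells. These counts are a description, and no test was made of them.

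Of 52 other genes of the interferon pathway listed and present, 34 were tested in WT cells, with 3 higher and 7 lower in LSK, beside 9.16% and 14.8% of all genes tested. In Ripk3-/- cells 34 were tested, with 7 higher and 3 lower, beside 7.95% and 12.2% of all genes. The median log2 difference was -0.04 in WT and 0.01 in Ripk3-/- cells, and nothing is read from these counts about the pathway as a whole. Ifngr1, the ligand-binding chain of the interferon gamma receptor, was lower in LSK cells, at 252 and 171 CPM in WT LSK, 276 and 245 CPM in Ripk3-/- LSK, 810 and 685 CPM in WT LK, and 827 and 931 CPM in Ripk3-/- LK libraries. Its log2 difference was -1.84 (adjusted p = 2.28e-07 from limma) in WT and -1.75 (adjusted p = 3.24e-07) in Ripk3-/- cells. The second chain, Ifngr2, was called lower in WT cells (-0.86, adjusted p = 0.0335 from limma). Irf8, a factor of monocyte and dendritic cell development, was lower in LSK cells by -2.22 in WT and -2.47 in Ripk3-/- cells on the log2 scale.

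Of the further genes called lower in LSK cells, Tyk2, the kinase at Ifnar1, had log2 differences of -0.94 (adjusted p = 0.025 from limma) in WT and -1.06 (adjusted p = 0.0127) in Ripk3-/- cells. Called in WT and not in Ripk3-/- cells were Jak2 (-1.29), Ikbke (-1.05) and Irf2bp2 (-0.77). Higher in LSK cells in both genotypes were Socs3, an inhibitor of cytokine receptors (1.92 and 2.58), Irf2, an antagonist of Irf1 (1.54 and 1.39), and Zbp1, the nucleic acid sensor that binds Ripk3 (2.23 and 1.95). Irf9 was called in Ripk3-/- cells (0.94, adjusted p = 0.0103 from limma) and not in WT cells (0.13, adjusted p = 0.722). Tmem173, which encodes STING, and Socs1 and Tlr7 were called higher in Ripk3-/- and not in WT cells, with log2 differences of 0.70, 1.59 and 2.09.

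Markers of other cell types also differed between populations. The summed CPM of 6 markers of plasmacytoid dendritic cells, the main producers of type I interferon, was 22.7 to 46.1 in LSK and 4.57 to 10.8 in LK libraries, and 1 of them (Ccr9) was called higher in LSK cells in each genotype. Siglech, a defining marker of these cells, was at 2.27 to 5.63 CPM in LSK and 0.08 to 3.53 CPM in LK libraries. Ccr9 made up much of the dendritic cell sum, at a mean of 22.3 CPM in WT LSK and 21.8 CPM in Ripk3-/- LSK cells. Cd300c, of the same list, had log2 differences of 0.13 in WT and -0.20 in Ripk3-/- cells, without a call. The summed CPM of 5 T cell markers was 16.3 to 29.1 in LSK and 2.28 to 8.87 in LK libraries. That of 6 monocyte and macrophage markers was 53.5 to 78.0 in LSK and 243 to 305 in LK libraries. Of these 6, C1qa and C1qb were above 0 in LSK minus LK, without a call. Their log2 differences were 0.46 and 0.99 in WT and 1.15 and 1.81 in Ripk3-/- cells. Cd3g was the T cell marker called in both genotypes. The 5 erythroid markers summed to 123 to 180 CPM in LSK and 1161 to 1777 CPM in LK libraries, with 4 of 5 called lower in LSK cells in each genotype. The remaining erythroid marker, Hbb-b1, went the other way. Its log2 difference was 1.23 (adjusted p = 0.108 from limma) in WT and 3.08 (adjusted p = 2.76e-04) in Ripk3-/- cells. The 5 B cell markers summed to 60.4 to 86.2 CPM in LSK and 51.9 to 77.3 CPM in LK libraries, with 2 called higher in WT and 0 in Ripk3-/- cells. Of the NK cell list, Nkg7 was at 509 to 656 CPM in LSK and 1604 to 1907 CPM in LK libraries and was called lower in LSK cells in both genotypes. Klrb1c, of the same list, went the other way. Its log2 difference was 1.51 (adjusted p = 0.0651 from limma) in WT and 1.69 (adjusted p = 0.0452) in Ripk3-/- cells. Ncr1 was also higher in WT LSK cells, by 1.44 on the log2 scale, with overlapping libraries and no call. Klk1, of the dendritic cell list, was at 0 in 4 of the 8 libraries, and none of the markers in these lists was at 0 in all. Their part in the differences between populations was not tested.

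The comparison of genotypes within LSK cells asked whether loss of Ripk3 alters the interferon-stimulated genes of early progenitors. None of the 40 genes passed an adjusted p under 0.05 in limma, edgeR or DESeq2, compared with 2.16% of all 16817 genes tested in limma (0.892% higher and 1.27% lower). At an unadjusted p under 0.05, 3 were higher and 1 was lower in Ripk3-/- cells, compared with 1451 higher and 1560 lower of all 16817 genes tested. The median log2 difference was 0.05 for the 40 genes and -0.01 for all genes, with 23 genes above 0 and 17 below. In 10 genes both Ripk3-/- libraries were above both WT libraries, and in 8 both were below, where 21.4% and 23.2% of all genes tested were so placed. A p that misses the threshold with 2 libraries per group does not show that a gene was level.

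The genes with an unadjusted p under 0.05 between genotypes in LSK cells are given with the deposited values. Ifi35 was at 5.56 and 5.28 in the WT libraries against 18.8 and 18.0 in the Ripk3-/- LSK libraries, with replicates close together (log2 difference 1.60, SE 0.546, adjusted p = 0.133 from limma). Ifit3 was at 0.79 and 1.14 in the WT libraries against 5.39 and 3.91 in the Ripk3-/- LSK libraries (log2 difference 1.52, SE 0.595, adjusted p = 0.185 from limma). Ifi47, an IRG family GTPase, was at 144 and 187 in the WT libraries against 268 and 213 in the Ripk3-/- LSK libraries (log2 difference 0.54, SE 0.202, adjusted p = 0.164 from limma). Oas3 was at 49.8 and 34.3 in the WT libraries against 18.7 and 15.0 in the Ripk3-/- LSK libraries (log2 difference -1.25, SE 0.436, adjusted p = 0.139 from limma). In these 4 genes the groups did not overlap, but no difference held against the spread after adjustment over all genes.

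Of the genes fixed to be shown, Isg15 was at 9.04 and 14.1 in the WT libraries against 3.94 and 4.99 in the Ripk3-/- LSK libraries, without overlap (log2 difference -1.18, SE 0.586, adjusted p = 0.296 from limma). Irf1 was at 501 and 452 in the WT libraries against 371 and 410 in the Ripk3-/- LSK libraries, also without overlap (log2 difference -0.29, SE 0.165, adjusted p = 0.366 from limma). Ifit1 was at 21.2 and 14.6 in the WT libraries against 33.6 and 30.4 in the Ripk3-/- LSK libraries (log2 difference 0.83, SE 0.507, adjusted p = 0.402 from limma). Irf7, Usp18, Mx1, Bst2, Oas2, Ifitm3 and Stat2 had log2 differences from -0.29 to 0.29.

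Within LK cells, Irf1 was the gene called between genotypes, at 1 of 37 tested compared with 0.473% of all 13949 genes tested (0.1% higher and 0.373% lower). It was lower in Ripk3-/- cells, with deposited values of 268 and 280 in the WT libraries against 163 and 166 in the Ripk3-/- LK libraries. The replicates lay close together and the groups far apart, with a log2 difference of -0.74 (SE 0.166, adjusted p = 0.045 from limma), and the 95% interval was -1.08 to -0.39. The call stood near the threshold. Over 17 other settings the log2 difference stayed between -0.60 and -0.77, the adjusted p ran from 5.42e-04 (DESeq2) to 0.648 (limma without a trend), and 5 settings kept the call. It was lost without WT LSK replicate 1, WT LSK replicate 2 or any of the 4 LK libraries, and with edgeR. Socs3, a target and inhibitor of cytokine signaling, was the gene called among 31 genes of the wider pathway, at 36.5 and 27.1 in the WT libraries against 11.3 and 13.6 in the Ripk3-/- LK libraries (log2 difference -1.28, SE 0.269, adjusted p = 0.0268 from limma). Its deposited values in LSK cells were 153 and 161 in the WT libraries against 102 and 101 in the Ripk3-/- libraries.

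Apart from Irf1, none of the 37 interferon-stimulated genes tested passed adjustment in LK cells. The median log2 difference of the 37 genes was -0.08, compared with 0.01 for all genes, and 22 were below 0. At an unadjusted p under 0.05, 6 were lower and 1 was higher, compared with 532 lower and 383 higher of all 13949 genes tested. In 10 genes both Ripk3-/- libraries were below both WT libraries (19.9% of all genes) and in 6 both were above (20.1%). Oasl1 was at 13.8 and 19.4 in the WT libraries against 6.09 and 7.70 in the Ripk3-/- LK libraries (log2 difference -1.14, SE 0.423, adjusted p = 0.472 from limma). Dhx58 was at 22.2 and 21.1 in the WT libraries against 9.89 and 13.7 in the Ripk3-/- LK libraries (log2 difference -0.84, SE 0.359, adjusted p = 0.637 from limma). Oas1a, the synthetase with a near-identical copy, was at 30.8 and 38.4 in the WT libraries against 16.7 and 22.5 in the Ripk3-/- LK libraries (log2 difference -0.80, SE 0.312, adjusted p = 0.547 from limma).

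Lgals3bp was at 217 and 192 in the WT libraries against 140 and 144 in the Ripk3-/- LK libraries (log2 difference -0.52, SE 0.176, adjusted p = 0.374 from limma), and Ifitm3 at 215 and 219 in the WT libraries against 164 and 168 in the Ripk3-/- LK libraries (log2 difference -0.39, SE 0.167, adjusted p = 0.645 from limma). In these groups replicates differed less than genotypes, yet the differences were not called. Ifi47 went the other way, at 117 and 138 in the WT libraries against 179 and 164 in the Ripk3-/- LK libraries (log2 difference 0.43, SE 0.201, adjusted p = 0.733 from limma). Ifit3, Mx2 and Ifi44 had mean values under 1 in LK cells and were not tested there. Irf7, Isg15, Usp18, Ifit1, Mx1, Bst2, Oas2 and Stat2 had log2 differences from -0.75 to 0.47 without a call.

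**Figure D5:**
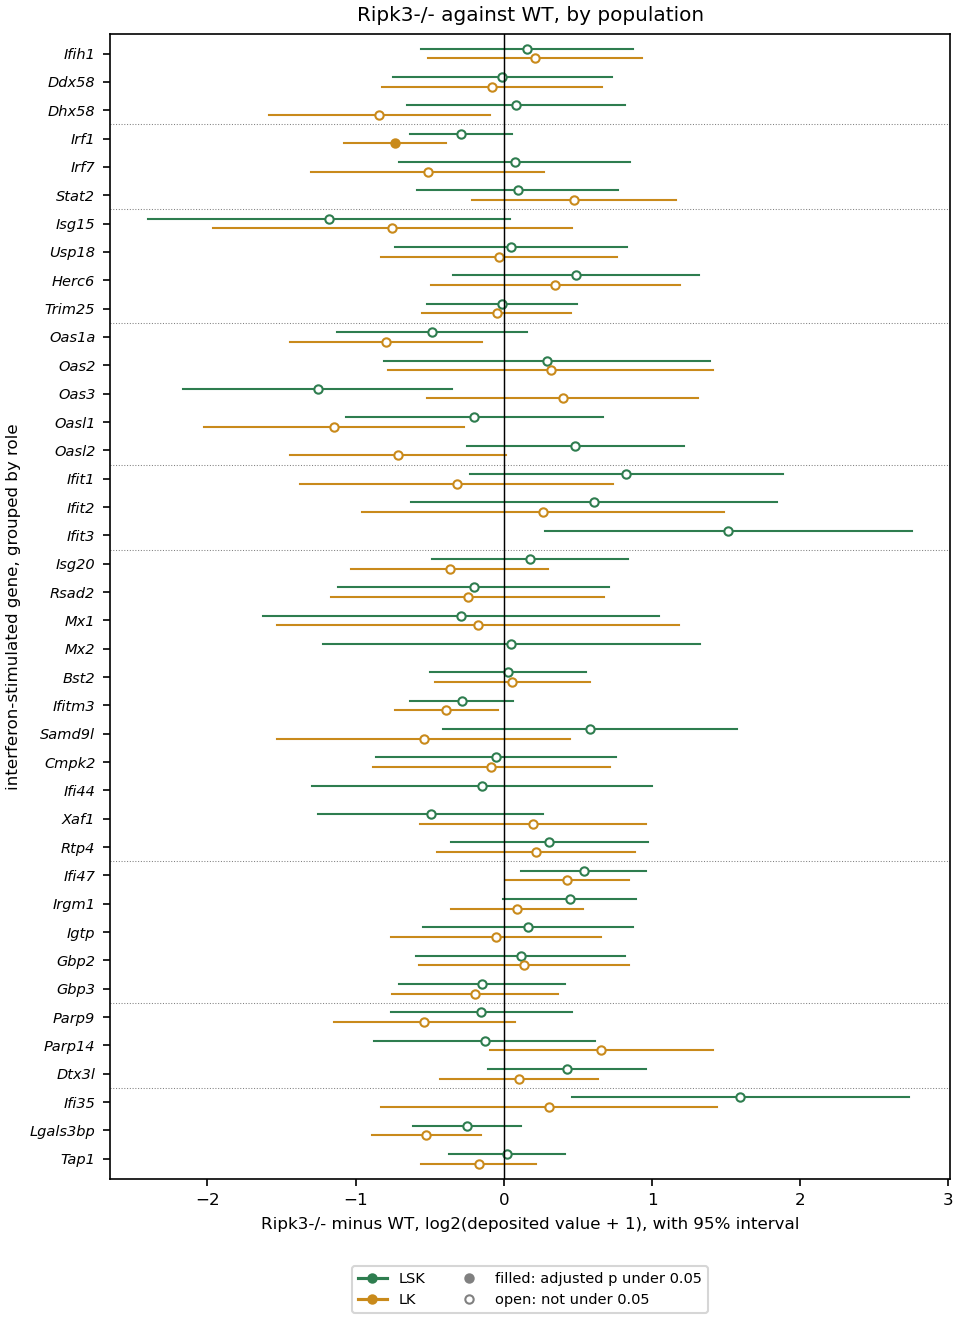
Log2 difference between Ripk3-/- and WT (horizontal axis, on the log2(deposited value + 1) scale) of the interferon-stimulated genes (rows, grouped by role) in LSK and LK cells. Points are limma estimates from 2 libraries per group, lines are 95% intervals, and the filled point is Irf1 in LK cells at -0.74. The intervals of most genes cross 0.

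An interaction term asked whether the genotype difference was the same in both populations. None of the 40 genes was called in limma, edgeR or DESeq2, compared with 0.358% of all 15901 genes tested (0.182% higher and 0.176% lower). An unadjusted p under 0.05 was found for 2 of the 40, compared with 1613 of all 15901 genes. Oas3 had a log2 difference of -1.25 in LSK and 0.40 in LK cells, and the interaction was -1.65 (SE 0.619, adjusted p = 0.371 from limma). Oasl2 had log2 differences of 0.48 and -0.71, and the interaction was 1.20 (SE 0.496, adjusted p = 0.431 from limma). Of 37 genes tested in both populations, both Ripk3-/- libraries were below both WT libraries in each population for 4 (Isg15, Oas1a, Lgals3bp and Irf1) and above for 1 (Ifi47). Parp14 and Oas3 were below in LSK and above in LK cells. Of all genes tested, 23.2% in LSK and 19.9% in LK cells had both Ripk3-/- libraries below both WT libraries, and 21.4% and 20.1% above. The share of all genes so placed in both populations at once was not computed, and nothing is read from these counts.

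Neutrophil markers moved with genotype in both populations. Of the 8 markers Ltf, Ngp, Camp, S100a8, S100a9, Lcn2, Mmp9 and Retnlg, 7 rose in Ripk3-/- LSK cells and 5 in Ripk3-/- LK cells. Their summed CPM was 618 to 671 in WT LSK, 2068 to 2420 in Ripk3-/- LSK, 872 to 883 in WT LK and 1907 to 1927 in Ripk3-/- LK libraries. Mmp9 in both populations, and S100a8 and Retnlg in LK cells, were not called. Markers of other cell types were also called in Ripk3-/- LSK cells. The erythroid Gata1 was lower (log2 difference -1.32, adjusted p = 0.0128 from limma), and Flt3, of the early progenitor list, was higher (0.78, adjusted p = 0.0298). Of the 5 erythroid markers, 4 were below 0, and Hbb-b1 went the other way without a call (1.46, adjusted p = 0.164 from limma). Of the 8 early progenitor markers, 7 were above 0 and 1 was below. The part of these markers in the differences between genotypes, that of Irf1 included, was not tested.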

How the data were processed

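RNA from sorted LSK and LK bone marrow cells of WT and Ripk3-/- mice was sequenced from stranded mRNA libraries. The submitters' processing notes name TopHat and the mm9 build, and versions are not given in the sources used here. The deposited columns are headed FPKM, but each value is a signal that equals whole reads times a fixed step per library. The steps match the authors having scaled CPM by TMM factors within each population, with no division by length, and all values came out whole within 0.01 of a read. Groups and replicate numbers follow the titles.

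Genotypes were compared with limma 3.58.1 (R 4.3.3, trend) on log2(deposited value + 1) with 4 group means over 8 libraries, on genes with a mean of at least 1 and with Benjamini-Hochberg adjustment over all genes tested. Populations were compared in the same way on CPM from recovered reads with TMM factors of edgeR 4.0.16 over all 8 libraries, since the deposited scaling does not join the populations. Alternatives were edgeR, DESeq2 1.42.0, other pseudocounts, filters and scalings, a fit without a trend, separate fits, a replicate block, and each library left out. The fits were tested on simulated data. Members and lists were chosen with earlier results of these data known. Values by library are given for called genes (at most 12 per comparison by size of change were required), for up to 5 genes in each direction with an unadjusted p under 0.05 between genotypes, and for 10 genes fixed by role. Promoters were taken from RefSeq (GRCm38.p6), and exon lengths and near-identical stretches (at least 90% over 200 bases, BLAST 2.17.0) from GENCODE. No coordinates of the mm9 build were used.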

Additional observations from a re-analysis of the deposited data

How the results depend on the processing

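The LK genotype count of 1 (Irf1) became 0 with a pseudocount of 0.1, no filter, quantile normalization, no trend, edgeR, the replicate block, or a 2-fold minimum, and ran from 0 to 1 with libraries left out. It stayed at 1 with a mean of at least 5, DESeq2 and a separate fit. The LSK genotype and interaction counts were 0 in every alternative run.

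The count between populations ran from 10 to 16 in WT and from 14 to 23 in Ripk3-/- cells with libraries left out, and was 14 in Ripk3-/- cells without a trend. The median log2 difference in WT cells was 0.63 with no filter and with a mean of at least 5, 0.89 with quantile normalization and 0.97 with total-count CPM, and 0.55 to 0.67 with libraries left out. In Ripk3-/- cells it was 1.11 with quantile normalization, 1.25 with total-count CPM, and 0.91 to 0.96 with libraries left out. Between genotypes it was -0.083 in LSK cells with quantile normalization, and with libraries left out -0.050 to 0.13 in LSK, -0.11 to -0.0085 in LK, and 0.12 to 0.26 for the interaction. The cause of these moves was not tested. Of 38 called differences of single genes between populations, 17 were called in every alternative, and none changed direction.

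Over all genes, the LSK genotype count of 363 was 237 with edgeR, 613 with DESeq2, 120 without a trend, 198 without a filter and 195 in a separate fit. The LK count of 66 was 9 without a filter, 3 without a trend, 177 with DESeq2, 125 in a separate fit and 36 with quantile normalization. The interaction count of 57 was 3 without a filter, 2 without a trend and 155 with DESeq2. The population counts of 3814 and 3072 were 1998 and 1494 without a trend, and 1918 in WT cells with quantile normalization.

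Libraries with the same replicate number did not deviate together (r across genes from -0.145 to -0.0104). With the replicate block, 15 genes were called between populations in WT and 20 in Ripk3-/- cells, and 0 in LSK, LK and interaction. With the pairing crossed in Ripk3-/- cells, chosen after seeing the data, 23 were called, and 3380 of all genes compared with 2684 in the block. With 2 libraries per group, low genes such as Isg15, Ifit3 and Mx1 are limited by depth.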
